A study of Mus musculus with 12 samples.

Results

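The genes described here encode collagens, laminins, fibrillins, fibulins, thrombospondins, fibronectin, Sparc, lysyl oxidases and the metalloproteinases and inhibitors that remodel the matrix. They were taken by symbol, as all protein-coding genes whose names start as members of these families do, and not by any measured value. In all 118 of 22046 protein-coding genes in the table matched. Among them Col4a3bp matched by its letters alone: it encodes a ceramide transfer protein, not a collagen, and it is counted below but described apart. Livers came from Apoe knockout mice, which lack apolipoprotein E, a carrier protein of blood lipids. The control group received a Gfp-AAV vector (6 libraries, numbers 1 to 6), and the other group received an Rspo2-AAV vector (6 libraries, numbers 1, 2, 4, 5, 6 and 7). AAV is adeno-associated virus, used to deliver a gene, and Rspo2 encodes R-spondin 2, a secreted protein that strengthens Wnt signalling. Both groups carry the Apoe knockout, and no library of an Apoe-intact or uninjected mouse was compared. The labels give no age, sex, diet, time after injection or promoter of the vectors, and do not tell whether every library is its own mouse. The p-values therefore reflect the spread between libraries, part of which may be technical.

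Liver matrix is made by several cell types. Hepatic stellate cells, which store vitamin A in the space between hepatocytes and sinusoids, are the main source of fibrillar collagen and turn into matrix-producing myofibroblasts when the liver scars. Endothelial cells contribute basement membrane components, while hepatocytes secrete plasma fibronectin and much of the liver's collagen XVIII. Matrix metalloproteinases (MMPs) cut matrix proteins, Timps inhibit them, Adamts proteases process procollagens and proteoglycans, and lysyl oxidases cross-link collagen and elastin.

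Values are FPKM, read fragments scaled to gene length and library size. Recovered library totals ran from 14295644 to 22195576 reads, of which the 118 genes took 0.243% to 0.449%. Rspo2 had 0 reads in every control library and 49.9 to 573 FPKM in the Rspo2-AAV libraries, as the labels state. Hepatocyte markers such as Alb (20512 ± 7578 FPKM in controls and 12859.8 ± 2515 in Rspo2-AAV livers, mean ± SD, n = 6 each) were abundant in every library. Below, means are likewise given ± SD with the control group first, and other errors are named. Some libraries stood apart. Pancreatic acinar genes took 7.73% of the reads of Rspo2-AAV 4 and 0.693% of those of Rspo2-AAV 5, against 0.0793% in Rspo2-AAV 6 and at most 0.00796% in the other 9. Xist RNA, which coats the silenced X of female cells, reached 42.0 FPKM (control 3), 28.0 FPKM (Rspo2-AAV 1) and 5.57 FPKM (Rspo2-AAV 2) and stayed below 1 in the other 9. Counts of called genes are therefore also given without these libraries. Earlier work on these data drew a boundary between numbers 1 to 3 and 4 to 7, which the labels do not call a batch, and results are given within each range.

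Matrix gene expression was dominated by a pair of genes, neither of which was called between the groups. Collagen XVIII (Col18a1) and fibronectin (Fn1) made up 60.0% to 70.2% of the summed FPKM of the 118 genes in each library. Col18a1, whose C-terminal fragment is endostatin, ranged from 140.1 to 194 FPKM in controls (median 163) and from 137 to 169 in Rspo2-AAV livers (median 157). The log2 difference was -0.06 (95% interval -0.30 to 0.18). Fn1 ranged from 72.7 to 203 FPKM in controls and from 104 to 161 in Rspo2-AAV livers, with a log2 difference of 0.09 (95% interval -0.38 to 0.55). The groups overlapped for both genes. The next most abundant were Mmp19 (17.7 ± 2.15 and 16.0 ± 5.73 FPKM) and Sparc, a collagen-binding glycoprotein (17.7 ± 2.31 and 14.3 ± 2.68 FPKM). The mean of 65 genes of the set lay below the 0.5 FPKM required for testing, which left 53 tested.

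Of the 53 tested genes, 3 rose (Mmp7, Mmp14 and Col20a1) and 3 fell (Col6a3, Col14a1 and Adamts13) by limma at a Benjamini-Hochberg adjusted p under 0.05 over all genes tested. Among all genes, 5.20% of 13447 tested genes were called, 2.55% higher and 2.65% lower. The 6 called genes are a share of 11.3% of the set (5.66% in each direction), and limma-voom on recovered reads called the same 6. Of the 53, 37 had a log2 difference below 0 and the median was -0.28, while 6668 of all 13447 tested genes were below 0, with a median of 0.00. At an unadjusted p under 0.05 there were 24 of the 53 and 2891 of all 13447. Groups did not overlap for 2 of the 53 (Mmp7 and Col6a3), 3.77%, against 3.24% of all tested genes. Only Mmp7 was called without Rspo2-AAV 4 and 5, the libraries with the most acinar reads (1 higher and 0 lower). Calls were fewer over all genes too, with 117 higher and 119 lower of 13380, against 343 and 356 in all 12 libraries. Mmp7 was also the only call with values rescaled to TPM, where 199 of all 13512 tested genes were higher and 183 lower. The loss of the other calls is therefore not particular to the matrix genes. Without a filter on low values, Mmp7 and Col6a3 stayed called, while Adamts13, Col14a1, Mmp14 and Col20a1 did not (adjusted p of 0.0693 to 0.111). Mmp7 and Col20a1 averaged 0.269 and 0.333 FPKM in controls, so they reached the 0.5 FPKM filter only through their Rspo2-AAV values. Leaving out control 2, 4, 5 or 6 or Rspo2-AAV 5 or 6 left only Mmp7 and Col6a3 called, while leaving out control 3 gave 2 higher and 6 lower. A log2 difference below is taken on log2(FPKM + 0.5), which understates the change of genes with low values. A value given as a fold is the ratio of the mean FPKM of the groups, without the added 0.5.

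**Figure D1:**
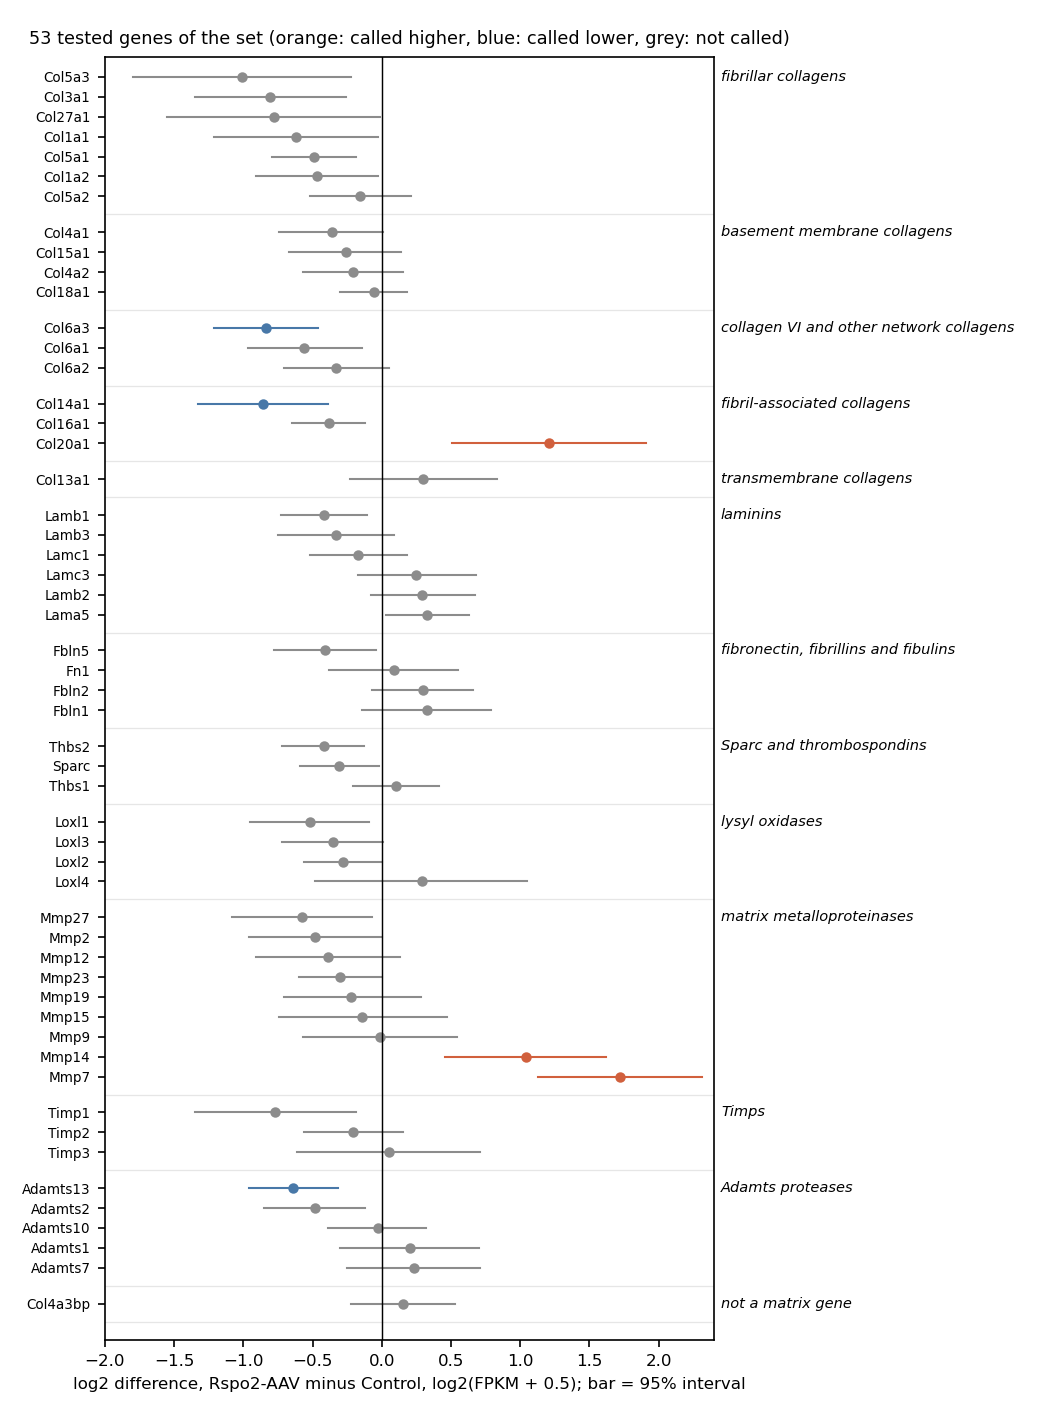
Log2 difference (Rspo2-AAV minus control, log2(FPKM + 0.5)) of the 53 tested genes on the horizontal axis, grouped by role, where points are estimates and bars 95% intervals. Mmp7, Mmp14 and Col20a1 (orange) lie to the right of 0, Col6a3, Col14a1 and Adamts13 (blue) to the left, and all 7 fibrillar collagens have estimates below 0 without being called.

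Mmp7, which encodes matrilysin, a small secreted metalloproteinase known as a target of beta-catenin in intestinal tumours, rose most (ENSMUSG00000018623, GRCm38 chromosome 9, 7692090 to 7699585, plus strand). It was at 0.424, 0.408, 0.359, 0.0484, 0.132 and 0.244 FPKM in controls 1 to 6. In Rspo2-AAV 1, 2, 4, 5, 6 and 7 it was at 0.742, 3.11, 3.47, 2.77, 1.86 and 1.25 FPKM. Every Rspo2-AAV library lay above every control, and Rspo2-AAV 1 was the lowest of its group. The mean was 8.18-fold higher, the log2 difference 1.72 ± 0.27 (SE) and the adjusted p 0.00465. The level remained low, with 29 reads in all 6 controls and 226 in all 6 Rspo2-AAV libraries. The call held in each of the 12 fits that left out 1 library (log2 differences of 1.59 to 1.92) and without Rspo2-AAV 4 and 5 (1.46, adjusted p = 0.0323).

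Mmp14 encodes the membrane-anchored MT1-MMP, a collagenase that also activates pro-MMP2 (ENSMUSG00000000957, chromosome 14, 54431612 to 54445364, plus strand). Its values in controls 1 to 6 were 4.25, 3.82, 14.1, 7.03, 8.15 and 6.13 FPKM. In the Rspo2-AAV livers they were 20.4, 17.7, 12.3, 11.5, 14.0 and 10.8 FPKM. Control 3 alone reached into the range of the Rspo2-AAV group, and Rspo2-AAV 1 and 2 were the highest. These are the libraries with Xist above 1 FPKM. The mean rose 2.00-fold, from 7.25 ± 3.74 to 14.5 ± 3.81 FPKM (log2 difference 1.04 ± 0.27 SE, adjusted p = 0.0446). Without control 3 the difference was 1.24 (adjusted p = 0.00578). Leaving out any other single library ended the call (adjusted p up to 0.0990). In the libraries with Xist under 1 FPKM the log2 difference was 1.03 (adjusted p = 0.00980).

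Col20a1, a fibril-associated collagen, was called just within the threshold (ENSMUSG00000016356, chromosome 2, 180986535 to 181018363, plus strand; log2 difference 1.21 ± 0.32 SE, adjusted p = 0.0491). Controls 1 to 6 held 0.616, 0.530, 0.341, 0.161, 0.247 and 0.101 FPKM. The Rspo2-AAV libraries held 0.940, 0.684, 0.567, 1.37, 2.54 and 3.79 FPKM. The groups overlapped only through Rspo2-AAV 4, which was below control 1, and Rspo2-AAV 6 and 7 were the highest. The transcript 9230112E08Rik overlaps Col20a1 on the same strand and was at 1.04 ± 0.173 and 1.37 ± 0.434 FPKM (not called), so reads may be shared between them. The call remained when control 1 or Rspo2-AAV 1, 2 or 4 was left out, and was lost when any of the other 8 libraries was (adjusted p up to 0.114).

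**Figure D2:**
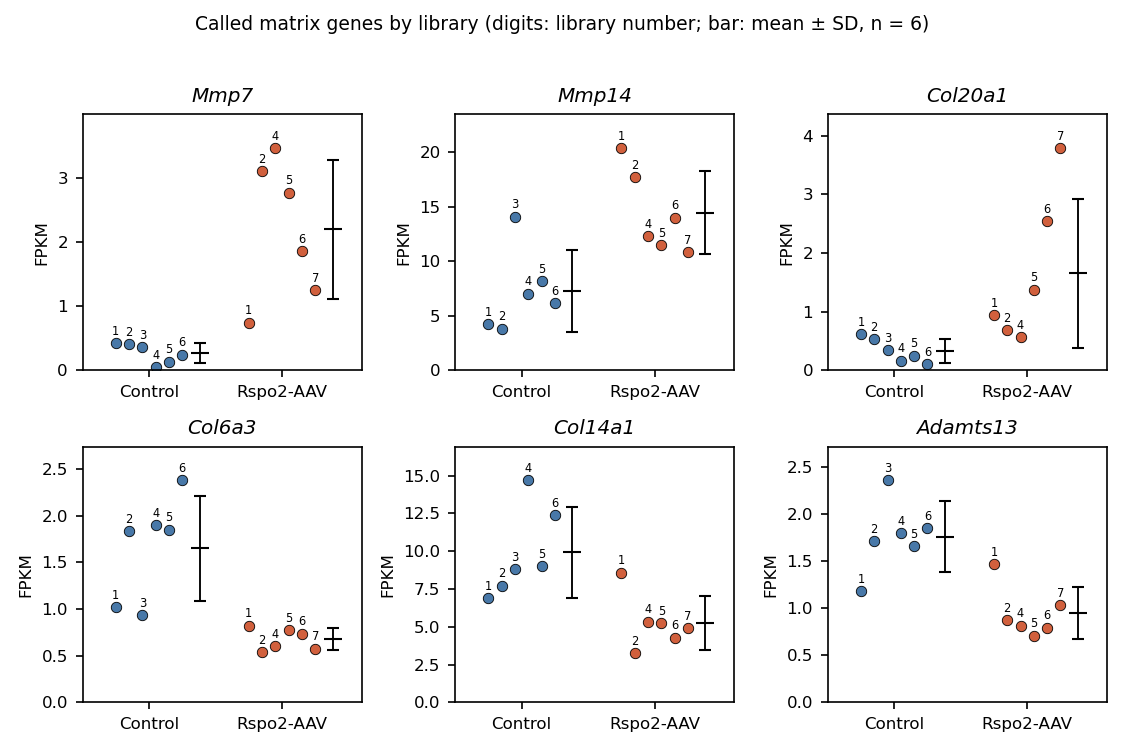
FPKM (vertical axes, linear from 0) of the 6 called genes in each library, with library numbers beside the points and mean ± SD (n = 6) beside each group. Mmp7 and Col6a3 show no overlap between groups, while control 3 overlaps the Rspo2-AAV range for Mmp14 and Rspo2-AAV 1 overlaps the control range for Col14a1 and Adamts13.

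The promoters of these 3 genes are printed because the genes rose together, beside that of Col6a3, which fell. Each line holds the 250 bases before the most upstream RefSeq start in GRCm38.p6, 5′ to 3′ on the gene's strand. The windows are chr9:7691840-7692089 (plus strand) for Mmp7, chr2:180986285-180986534 (plus strand) for Col20a1, chr14:54431348-54431597 (plus strand) for Mmp14 and chr1:90843972-90844221 (minus strand) for Col6a3. Capitals mark matches, on either strand, to CTTTGA (the core of the TCF/LEF motif read by beta-catenin's partners), TGANTCA (AP-1) or TATAAA (the TATA box).
Mmp7: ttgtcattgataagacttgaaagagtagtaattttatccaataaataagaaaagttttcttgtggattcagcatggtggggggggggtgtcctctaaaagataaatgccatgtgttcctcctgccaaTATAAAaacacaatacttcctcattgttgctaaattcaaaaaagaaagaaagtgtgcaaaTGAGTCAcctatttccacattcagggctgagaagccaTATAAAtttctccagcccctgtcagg
Col20a1: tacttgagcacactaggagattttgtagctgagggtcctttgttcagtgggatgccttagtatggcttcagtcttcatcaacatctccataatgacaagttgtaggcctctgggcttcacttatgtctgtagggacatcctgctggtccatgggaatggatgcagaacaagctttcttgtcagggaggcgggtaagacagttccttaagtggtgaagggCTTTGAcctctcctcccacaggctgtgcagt
Mmp14: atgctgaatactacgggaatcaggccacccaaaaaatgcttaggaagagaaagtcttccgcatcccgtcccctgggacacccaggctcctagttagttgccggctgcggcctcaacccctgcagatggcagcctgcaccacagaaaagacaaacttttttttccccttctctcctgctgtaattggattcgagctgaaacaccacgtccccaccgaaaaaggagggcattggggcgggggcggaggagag
Col6a3: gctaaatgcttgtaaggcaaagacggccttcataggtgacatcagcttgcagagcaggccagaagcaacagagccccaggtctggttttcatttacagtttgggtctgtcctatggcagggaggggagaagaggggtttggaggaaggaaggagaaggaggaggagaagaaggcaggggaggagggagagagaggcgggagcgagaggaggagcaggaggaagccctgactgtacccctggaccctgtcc

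Mmp7 held an AP-1 match whose first base lay at -63, TATA matches at -26 and -123, and a TCF/LEF core just past the start at 6, in the run aaacaTCAAAGtagctctga. Position 1 is the first transcribed base. Col20a1 held a TCF/LEF core at -31. Adamts13, which fell, also held one, at -231. Mmp14 and Col6a3 held none of the 3 motifs in the window, which ran from 250 bases before to 50 after the start. Over 27025 genes with such a window, 16.2% held the TCF/LEF core, 7.92% the AP-1 motif and 14.2% the TATA motif. Windows were found for 81 of the 118 genes of the set, of which 18 held the TCF/LEF core. These matches are letters in a window, not binding sites, and the motifs do not overlap each other in the 4 windows.

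Among the falls, Col6a3, the largest chain of the collagen VI microfibril, was the clearest (ENSMUSG00000048126, chromosome 1, 90765923 to 90843971, minus strand). It was at 1.02, 1.83, 0.934, 1.90, 1.85 and 2.38 FPKM in controls 1 to 6. In the Rspo2-AAV livers it was at 0.821, 0.539, 0.599, 0.775, 0.735 and 0.576 FPKM. All controls lay above all Rspo2-AAV libraries, with controls 1 and 3 nearest to them. The log2 difference was -0.84 ± 0.17 (SE, adjusted p = 0.0163), the call held in all 12 fits that left out 1 library (-0.94 to -0.74), and it was lost without Rspo2-AAV 4 and 5 (-0.84, adjusted p = 0.0724) and with TPM scaling. Its partner chains were not called: Col6a1 was at 3.67 ± 1.11 and 2.28 ± 0.510 FPKM (adjusted p = 0.115, and 0.0278 without control 1), and Col6a2 at 1.23 ± 0.416 and 0.857 ± 0.248 FPKM.

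Col14a1, a fibril-associated collagen (ENSMUSG00000022371, chromosome 15, 55307750 to 55520803, plus strand), was at 6.88, 7.73, 8.81, 14.7, 9.02 and 12.4 FPKM in controls 1 to 6. In the Rspo2-AAV libraries it was at 8.58, 3.26, 5.35, 5.24, 4.29 and 4.89 FPKM. Rspo2-AAV 1 lay within the control range and the other 5 below it. The log2 difference was -0.86 ± 0.22 (SE, adjusted p = 0.0387). Leaving out control 1, control 3 or Rspo2-AAV 1 kept the call, and leaving out any of the other 9 libraries ended it (adjusted p up to 0.0924).

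Adamts13 encodes the protease that cuts von Willebrand factor, made in liver mainly by stellate cells (ENSMUSG00000014852, chromosome 2, 26973416 to 27009628, plus strand). Controls 1 to 6 were at 1.18, 1.71, 2.36, 1.80, 1.66 and 1.85 FPKM. The Rspo2-AAV libraries were at 1.47, 0.872, 0.814, 0.708, 0.795 and 1.03 FPKM, with number 1 again inside the control range. The log2 difference was -0.64 ± 0.15 (SE, adjusted p = 0.0276). It stayed called when control 1, control 3 or Rspo2-AAV 1, 2 or 7 was left out, and was lost when any of the other 7 libraries was (adjusted p up to 0.0682).

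Markers of stellate cells were lower in the same livers. Of 13 tested stellate markers, 0 rose, 5 fell (Ngfr, Lhx2, Lrat, Rgs5 and Pdgfra) and 12 had log2 differences below 0, with a median of -0.69. At an unadjusted limma p under 0.05 there were 12 of the 13. Over all 13447 tested genes, 2.65% were called lower, 49.6% were below 0 and 2891 had an unadjusted p under 0.05. The summed level of the 14 markers on the list was 33.8 to 54.8 FPKM in controls and 18.3 to 31.4 in Rspo2-AAV livers, without overlap, and none was at 0 in all libraries. The gap between the groups was narrow, with control 1 (33.8) and Rspo2-AAV 1 (31.4) nearest to each other. Lrat, which esterifies retinol for storage, averaged 4.64 ± 1.92 FPKM in controls and fell to 1.81 ± 0.515 in Rspo2-AAV livers (log2 difference -1.11 ± 0.23 SE, adjusted p = 0.0151). Of 4 tested markers of activated stellate cells and myofibroblasts, 0 were called (0 higher and 0 lower, 1 with an unadjusted p under 0.05, median 0.22). Acta2, the smooth muscle actin of myofibroblasts, was at 2.46 ± 1.52 and 2.78 ± 1.04 FPKM. Spon2, on the same list, averaged 4.57 FPKM in controls (1.26 to 6.60) and 1.78 in Rspo2-AAV livers (0.669 to 3.11; log2 difference -1.13 ± 0.34 SE, adjusted p = 0.0766). Whether the 2 lists differ was not tested. In bulk tissue, fewer cells of a type and less RNA per cell cannot be told apart, and the part of these markers in the falls of matrix genes was not tested.

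Fibrillar collagens, the rope-like collagens of scar and vessel wall, gave 0 higher and 0 lower of 7 tested. All 7 estimates lay below 0 (-1.01 to -0.16, median -0.62), and 6 of the 7 had an unadjusted p under 0.05. Col3a1 was at 4.64, 6.66, 2.41, 8.63, 5.21 and 7.22 FPKM in controls 1 to 6 and at 4.05, 1.80, 3.51, 3.17, 2.38 and 2.88 FPKM in the Rspo2-AAV libraries. The lowest control, number 3, fell inside the Rspo2-AAV range (adjusted p = 0.0867, and 0.00968 without control 3). Col1a1 was at 2.11, 5.42, 1.55, 5.54, 3.76 and 5.07 FPKM in controls. It was at 3.27, 1.59, 2.68, 2.12, 1.70 and 1.90 FPKM in Rspo2-AAV livers (adjusted p = 0.213). Controls 1 and 3 were low for this gene and the other 4 controls were above every Rspo2-AAV library. Its partner chain Col1a2 was at 2.16 ± 0.628 and 1.43 ± 0.534 FPKM (adjusted p = 0.209).

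The type V collagens, which regulate fibril diameter, followed the same order of groups without a call. Col5a1 was at 1.64 ± 0.392 and 1.01 ± 0.177 FPKM (log2 difference -0.49, adjusted p = 0.0607), and it was called without control 1 or without Rspo2-AAV 1 (adjusted p down to 0.0167). Col5a3 was the most abundant fibrillar collagen, at 9.93 ± 4.63 and 4.61 ± 2.21 FPKM (log2 difference -1.01, adjusted p = 0.128, and 0.0357 without control 3). Col27a1 was at 3.28 ± 2.04 and 1.52 ± 0.636 FPKM (adjusted p = 0.226), and Col5a2 at 0.715 ± 0.274 and 0.580 ± 0.173 FPKM. Summed over the 11 fibrillar genes, libraries ran from 12.9 (control 3) to 36.0 FPKM (control 6) in controls and from 12.5 to 18.7 FPKM in Rspo2-AAV livers. Values spread more widely among the controls, and control 3 was as low as the Rspo2-AAV libraries.

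**Figure D3:**
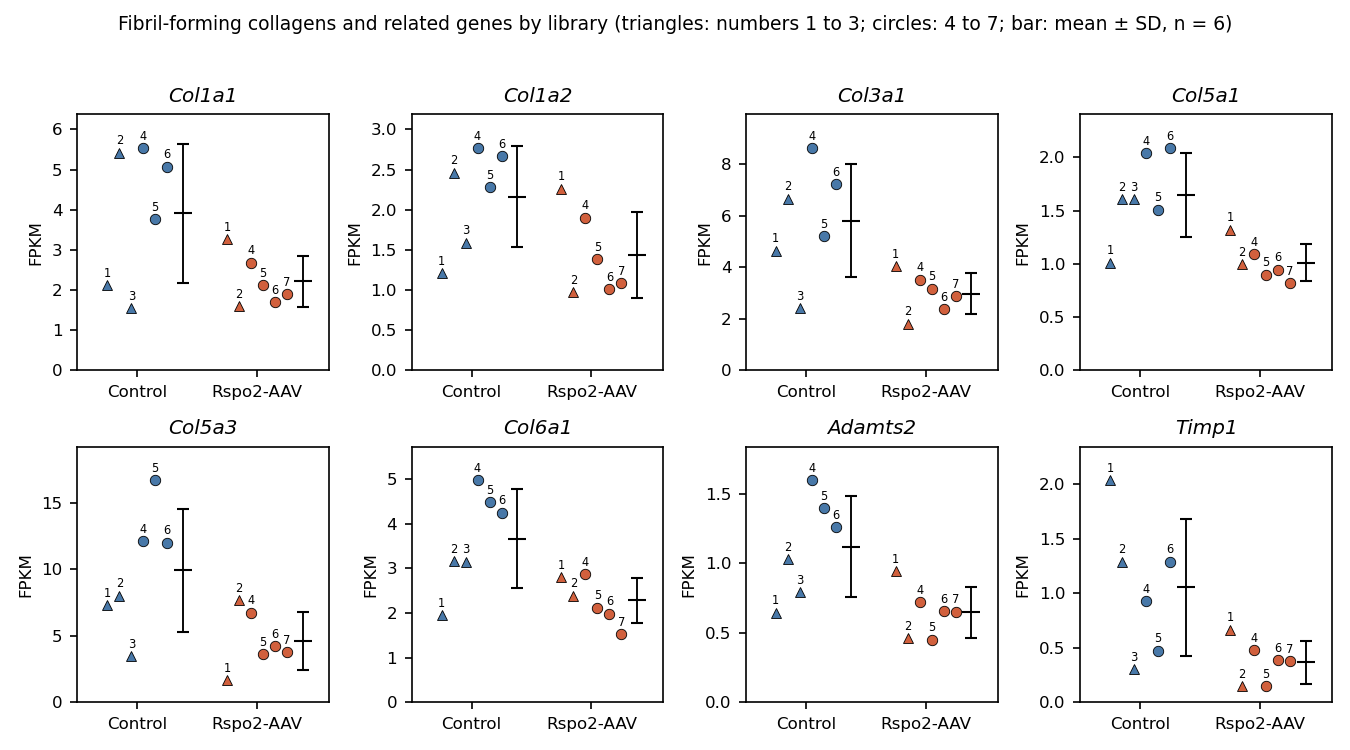
FPKM (vertical axes, linear from 0) of 8 genes in each library, with mean ± SD (n = 6) beside each group, where triangles are numbers 1 to 3 and circles numbers 4 to 7. For Col1a1 and Col3a1, controls 4 to 6 lie above all Rspo2-AAV libraries, while control 3 lies among them for Col3a1 and just below them for Col1a1.

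Within numbers 4 to 7 (3 control and 4 Rspo2-AAV libraries), more of the set was called, and mostly lower. Of 52 tested genes, 4 were higher and 14 lower, 34.6% in all, against 13.5% of 13365 genes tested there (6.52% higher and 7.00% lower). The 14 lower genes were Col6a3, Col14a1, Col5a3, Adamts13, Col1a1, Col3a1, Col6a1, Adamts2, Col5a1, Col27a1, Fbln5, Col1a2, Col16a1 and Lamb1, and the 4 higher were Mmp7, Mmp14, Col20a1 and Col13a1. Col1a1 was at 3.76 to 5.54 FPKM in controls 4 to 6 and at 1.70 to 2.68 in Rspo2-AAV 4 to 7 (log2 difference -1.02 ± 0.17 SE, adjusted p = 0.00991). Col5a3 averaged 13.6 FPKM in controls 4 to 6 and 4.59 in Rspo2-AAV 4 to 7 (adjusted p = 0.00629). Adamts2, the procollagen N-proteinase, had -0.78 ± 0.14 (adjusted p = 0.0136). Rspo2-AAV 4 and 5, which hold the acinar reads, make up 2 of the 4 Rspo2-AAV libraries of this range.

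Numbers 1 to 3 (3 control and 2 Rspo2-AAV libraries) gave 0 calls by limma among 52 tested genes. Among all 13394 genes tested there, 14 were called higher and 0 lower. At an unadjusted p under 0.05 there were 5 of the 52, and 972 of all 13394 genes tested in this range. For Col1a1 the log2 difference there was -0.17 ± 0.50 (SE) and for Col5a3 -0.60 ± 0.60. Col13a1, a transmembrane collagen, had 0.81 in numbers 4 to 7 and -0.43 in numbers 1 to 3. A test of the difference between the ranges (the interaction of vector and range) called 0 of 53 genes (smallest adjusted p = 0.240) and 0.245% of all 13447. At an unadjusted p under 0.05 this test had 7 of the 53 and 1546 of all 13447. The vector's effect on these genes is therefore not shown to differ between the ranges. Both Rspo2-AAV libraries of numbers 1 to 3 were above 1 FPKM for Xist, and none of Rspo2-AAV 4 to 7 was. Rspo2 itself was at 122 and 49.9 FPKM in Rspo2-AAV 1 and 2. It was at 386, 573, 461 and 265 FPKM in Rspo2-AAV 4, 5, 6 and 7. Range, Xist level and Rspo2 level therefore cannot be told apart within the Rspo2-AAV group. Among controls 1 to 3, only control 3 was above 1 FPKM for Xist. With a term for the ranges in the model, 2 genes were higher (Mmp7 and Mmp14) and 3 lower (Col6a3, Col14a1 and Adamts13). Over all 13447 genes that model called 416 higher and 455 lower. In the 9 libraries with Xist under 1 FPKM, 4 of 52 tested genes were higher and 7 lower, the latter including Col3a1, Col5a3, Col1a1 and Timp1. Calls were more frequent over all genes too, with 798 higher and 908 lower of 13341 tested in these libraries.

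**Figure D4:**
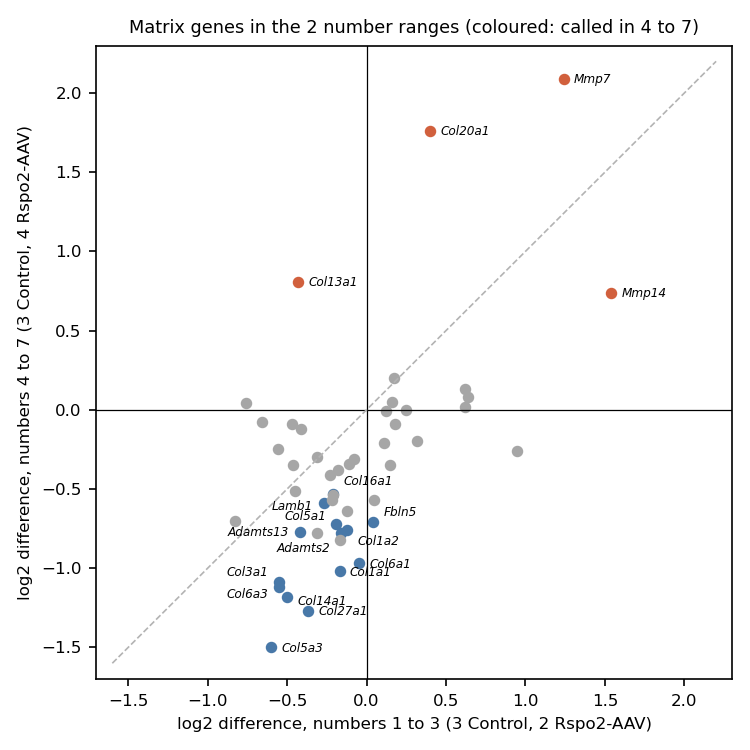
Log2 difference (Rspo2-AAV minus control) of each gene within numbers 1 to 3 (horizontal axis) and within numbers 4 to 7 (vertical axis), where the dashed line marks equal values and coloured points are called in numbers 4 to 7. Mmp7 and Mmp14 are above 0 in both ranges, and Col6a3, Col14a1 and Col3a1 below 0 in both.

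Basement membrane collagens, which form sheets rather than fibrils, gave 0 higher and 0 lower of 4 tested (median log2 difference -0.24, 0 with an unadjusted p under 0.05). Col4a1 and Col4a2, the chains of the common type IV network, lie head to head on chromosome 8 and share a short overlap on opposite strands. Col4a1 was at 8.45 ± 1.65 and 6.51 ± 1.49 FPKM (95% interval of the log2 difference -0.74 to 0.01). Col4a2 was at 5.49 ± 0.677 and 4.80 ± 1.21 FPKM (95% interval -0.57 to 0.15). Col15a1, a relative of Col18a1, was at 1.21 ± 0.207 and 0.976 ± 0.474 FPKM.

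Laminins, the cross-shaped trimers of basement membranes, were split, with 3 of 6 tested chains above 0 and 3 below, and 0 called in either direction (2 with an unadjusted p under 0.05). Lama5 was at 0.536 ± 0.146 and 0.802 ± 0.189 FPKM (log2 difference 0.33, adjusted p = 0.192) and Lamb2 at 1.35 ± 0.474 and 1.73 ± 0.375 FPKM (0.29). Lamc1, the most abundant chain, was at 2.48 ± 0.578 and 2.14 ± 0.511 FPKM (-0.17), and Lamb1 at 1.28 ± 0.290 and 0.832 ± 0.213 FPKM (-0.42, adjusted p = 0.110). Lama1, chosen after its values were seen, missed the filter with a mean of 0.466 FPKM. It was at 0.553, 0.596, 0.645, 0.641, 0.648 and 0.668 FPKM in controls and at 0.413, 0.323, 0.276, 0.238, 0.326 and 0.270 FPKM in Rspo2-AAV livers. Its groups did not overlap, and it was called in the fit without a filter on low values (log2 difference -0.48 ± 0.09 SE, adjusted p = 0.0206).

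Among matricellular and cross-linking genes, 0 of 3 tested in the Sparc and thrombospondin group, 0 of 4 fibronectin and fibulin genes and 0 of 4 lysyl oxidases were called in either direction. At an unadjusted p under 0.05 there were 2, 1 and 2 of them. Thbs1, an activator of latent TGF-beta, was at 0.734 ± 0.0654 and 0.844 ± 0.279 FPKM, and Thbs2 at 0.786 ± 0.193 and 0.457 ± 0.128 FPKM (adjusted p = 0.0942). Loxl1, which cross-links elastin, was at 1.18 ± 0.502 and 0.653 ± 0.247 FPKM, Loxl2 at 0.637 ± 0.143 and 0.433 ± 0.0879 FPKM, and Loxl4 at 0.502 ± 0.278 and 0.906 ± 1.02 FPKM. Lox itself averaged 0.191 FPKM over the libraries and was not tested. Fbln5, an elastic fibre protein, was at 1.17 ± 0.316 and 0.769 ± 0.308 FPKM.

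Beyond Mmp7 and Mmp14, the other 7 tested metalloproteinases were not called and had log2 differences of -0.58 to -0.01. Mmp2, the gelatinase that MT1-MMP activates, was at 1.83 ± 0.692 and 1.16 ± 0.472 FPKM (adjusted p = 0.235). Mmp15 was at 9.68 ± 3.17 and 8.58 ± 2.83 FPKM, and Mmp12, a macrophage elastase, at 0.878 to 2.44 FPKM in controls and 0.518 to 1.83 in Rspo2-AAV livers. None of the 3 tested Timps was called, higher or lower, and 1 had an unadjusted p under 0.05. Timp1, which is induced in scarring liver, was at 2.04, 1.29, 0.308, 0.932, 0.476 and 1.29 FPKM in controls 1 to 6. It was at 0.669, 0.147, 0.479, 0.148, 0.387 and 0.377 FPKM in Rspo2-AAV livers. Controls 3 and 5 lay within the Rspo2-AAV range (log2 difference -0.77 ± 0.27 SE, adjusted p = 0.115, and 0.0394 without control 3), and Timp1 overlaps Syn1 on the opposite strand. Timp2 was at 7.23 ± 1.17 and 6.29 ± 1.61 FPKM, and Timp3 at 1.83 ± 0.940 and 1.89 ± 0.895 FPKM.

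Of 5 tested Adamts proteases, only Adamts13 was called. Adamts2 was at 1.12 ± 0.367 and 0.648 ± 0.184 FPKM (adjusted p = 0.118). Adamts1, which cuts versican, was at 2.91 ± 1.01 and 3.46 ± 1.21 FPKM, and Adamts10, which binds fibrillin microfibrils, at 2.65 ± 0.164 and 2.69 ± 1.05 FPKM. Col4a3bp, the gene that is not a collagen, stood at 5.70 ± 1.46 FPKM in controls and 6.28 ± 1.03 in Rspo2-AAV livers (adjusted p = 0.664).

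The 65 untested genes included 5 without a read in any library (Col9a1, Col19a1, Adamts18, Mmp1b and Mmp10) and 39 with a mean under 0.1 FPKM. Their highest mean was 0.466 FPKM (Lama1 and Adamts14). Groups did not overlap for 4 of them, Lama1, Adamts14, Col7a1 and Col25a1, chosen for naming after their values were seen. The matching share over all untested genes was not counted, so this number cannot be judged against it. Adamts14, another procollagen N-proteinase, was at 0.529 to 0.664 FPKM in controls and 0.145 to 0.488 in Rspo2-AAV livers. Without a filter its log2 difference was -0.44 ± 0.11 (SE, adjusted p = 0.0809). Col7a1, the anchoring fibril collagen, was at 0.0101 to 0.0587 FPKM in controls and 0.0601 to 1.16 FPKM in Rspo2-AAV livers, and its highest value was in Rspo2-AAV 4, the library with the most acinar reads.

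Genes that act with this set were read from 5 further lists, whose counts stand beside the 2.55% of all tested genes called higher and 2.65% called lower. Of 24 tested proteoglycans and other matrix proteins, 0 rose and 6 fell (median log2 difference -0.19). The falls were small leucine-rich proteoglycans (Prelp, Dcn, Bgn and Lum), which coat collagen fibrils, and the fibulins Efemp1 and Efemp2. Dcn (decorin) averaged 30.0 ± 3.24 FPKM in controls (27.1 to 34.4) and fell to 15.0 ± 3.52 in Rspo2-AAV livers (10.3 to 19.6), with an adjusted p of 0.00304. Prelp fell by 1.23 ± 0.18 (SE) and Bgn by 1.03 ± 0.20 on the log2 scale.

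Of 24 tested genes for other matrix proteases and inhibitors, 0 rose and 4 fell (median -0.26). Reck, a membrane-anchored inhibitor of MT1-MMP and other MMPs, averaged 1.02 ± 0.338 FPKM in controls and fell to 0.374 ± 0.0651 in Rspo2-AAV livers (log2 difference -0.77 ± 0.15 SE, adjusted p = 0.0121), with controls at 0.631 to 1.55 and Rspo2-AAV livers at 0.300 to 0.473 FPKM. Serpine2, an inhibitor of serine proteases, averaged 3.91 ± 2.11 FPKM in controls and fell to 0.979 ± 0.623. Adamtsl2 fell by 0.72 ± 0.15 (SE) and Hpse (heparanase) by 0.62 ± 0.16 on the log2 scale. Reck fell while its target Mmp14 rose in the same comparison, and no relation between them was tested.

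Of 19 tested genes that modify or secrete collagen, 0 rose and 2 fell, Pcolce and Pcolce2, both enhancers of procollagen C-proteinase (log2 differences of -0.57 ± 0.12 and -0.63 ± 0.13, SE, adjusted p = 0.0208 and 0.0181). The collagen chaperone Serpinh1 averaged 11.2 and 6.47 FPKM, with an adjusted p of 0.258. Of 22 tested TGF-beta and matrix-inducing signals, 1 rose and 1 fell (median -0.06). Cyr61, a matricellular protein, rose from 6.18 ± 1.30 to 19.8 ± 14.8 FPKM (log2 difference 1.37 ± 0.34 SE, adjusted p = 0.0371), and Tgfbi fell by 0.56 ± 0.14 on the log2 scale. Tgfb1 and Ctgf were not called (log2 differences of -0.10 and -0.14). Of 22 tested integrins and other matrix receptors, 0 rose and 1 fell, Itgb5 (-0.42 ± 0.09 SE, adjusted p = 0.0205).

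Markers of other cell types were counted in the same fit, in which 2.55% of all tested genes were called higher and 2.65% lower. None of 10 tested sinusoidal endothelial markers was called, 0 higher and 0 lower (1 with an unadjusted p under 0.05), with a summed level of 67.0 to 119 FPKM in controls and 59.9 to 118 in Rspo2-AAV livers. Of 10 tested Kupffer cell markers, 0 rose and 3 fell (Marco, Clec4f and Vsig4). All 10 had log2 differences below 0 (median -0.90) and an unadjusted p under 0.05. Their summed levels were 603 to 1259 and 407 to 772 FPKM. Of 9 tested markers of recruited macrophages, 0 rose and 1 fell (Trem2). Of 8 tested markers of vascular endothelium, 0 rose and 1 fell (Rspo3). Hepatocyte, cholangiocyte, smooth muscle, portal fibroblast, adipocyte and lymphocyte lists had 0 calls in either direction, and 0 to 3 genes each with an unadjusted p under 0.05. All 18 acinar markers had log2 differences above 0 and 0 were called (16 with an unadjusted p under 0.05), with sums of 4.72 to 16.3 FPKM in controls and 4.64 to 61969.9 FPKM in Rspo2-AAV livers.

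**Figure D5:**
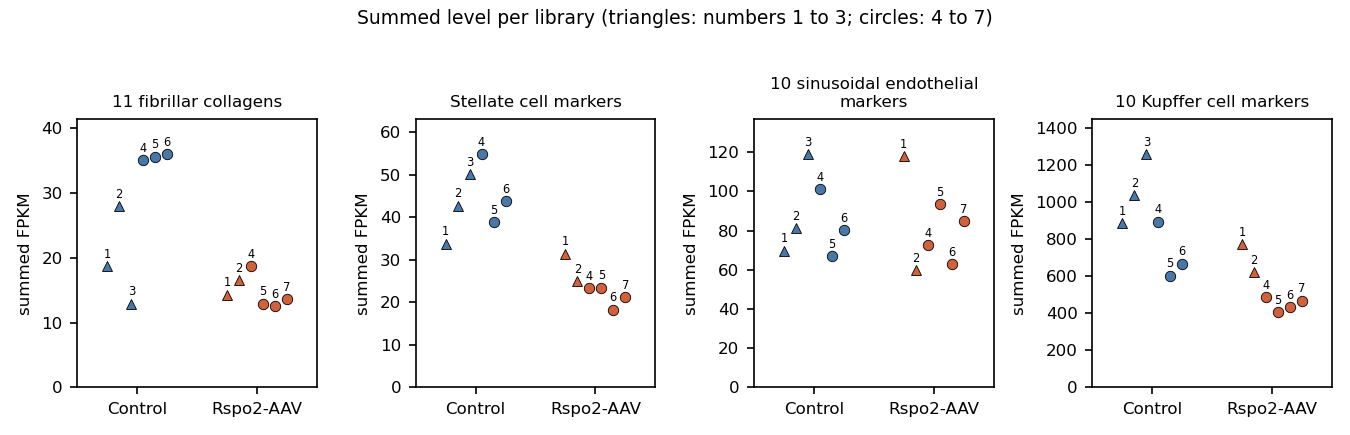
Summed FPKM per library (vertical axes, linear from 0) of the fibrillar collagens and of markers of stellate, sinusoidal endothelial and Kupffer cells, where triangles are numbers 1 to 3 and circles numbers 4 to 7. Stellate marker sums do not overlap between groups (33.8 to 54.8 against 18.3 to 31.4 FPKM), fibrillar collagen sums overlap, with control 3 as low as the Rspo2-AAV libraries, and endothelial sums overlap over most of their range.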

How the data were processed

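Liver RNA of 12 samples (6 Gfp-AAV control, 6 Rspo2-AAV) was measured by poly-A sequencing, per the labels' protocols. These mention strand-specific and unstranded preparation alike, and whether reads were counted by strand is not stated, so overlapping genes may share reads. The deposited values are FPKM for 54532 genes. The submitters' processing notes name the build GRCm38 (mm10) and the tools featureCounts 1.5.0-p3, HISAT2 2.0.5 and, for an unstated role, DESeq2 1.20.0. Gene lengths deposited by the authors (in bases, another kind of value) served to recover reads: 100% of positive values came out whole within 0.01 reads, and the library sizes in the FPKM followed median-of-ratios size factors. No molecular identifiers are mentioned, so duplicate reads may add error beyond that of counting.

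The test was limma 3.58.1 (lmFit, eBayes with trend, R 4.3.3) on log2(FPKM + 0.5) for the 13447 genes averaging 0.5 FPKM or more, all 12 samples, no covariate, two-sided, Benjamini-Hochberg over all genes, called under 0.05. It was tested on simulated data. Because the deposited unit is FPKM, limma-voom on recovered reads was the alternative, beside other pseudocounts, filters, TPM, a replicate block, terms and subsets of the library numbers, and leaving out samples. The interaction of vector and number range, and the shared numbers without a block, were added after seeing the data.

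Genes, lists, motifs and alternatives were chosen with earlier results of these data known. Named genes were those called or without overlap, the 20 highest by mean, a fixed set of common matrix genes, and up to 4 called genes per list or the 2 highest by mean. Figures used matplotlib 3.10.9.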

Additional observations from a re-analysis of the deposited data

Results flagged for a closer look

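In groups of 6, a library was singled out when its gap to the nearest of the others relative to the group's range, exceeded the 95% critical value of Dixon's test, both taken on the log2(FPKM + 0.5) scale. Among 68 groups (34 named genes, 2 groups each), 4 met this, where chance gives about 1 in 20. Rspo2-AAV 2 stood apart in 3 of them. It was highest for Adamts10, at 4.75 FPKM against 2.66 in the next library, and highest for Lama5, at 1.17 against 0.799 FPKM. It was lowest for Col4a2, at 2.56 against 4.34 FPKM. Control 3 was lowest for Mmp15, at 3.65 FPKM against 8.93 in the next control. None of these 4 genes was called in the comparison of groups, and the cause was not tested.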

How the results depend on the processing

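Counts of called matrix genes were 3 higher and 3 lower in the comparison of all 12 libraries and moved with several choices, the cause of which was not tested. Without a filter on low values 1 was higher, with TPM scaling 1 higher and 0 lower, and without the 2 libraries over 0.1% acinar reads 1 higher and 0 lower. Numbers 4 to 7 alone gave 14 lower, numbers 1 to 3 alone 0 higher and 0 lower, and the libraries with Xist under 1 FPKM 7 lower. Leaving out 1 library gave 1 to 2 higher and 1 to 6 lower, with 6 lower without control 3, 5 without control 1, 4 without Rspo2-AAV 1, 2 without Rspo2-AAV 2 or 7 and 1 without any of the others. Same-numbered libraries are not stated to be paired. The correlation of their deviations from group means ran from -0.249 (number 1) to 0.156 (number 6), below 0.1 for 4 of 5 numbers. For control and Rspo2-AAV libraries of different numbers it ran from -0.269 (control 6 with Rspo2-AAV 2) to 0.445. The latter was control 3 with Rspo2-AAV 1, both with Xist above 1 FPKM. With the number as a replicate block over the 5 shared numbers, 1 was higher (Mmp7) and 0 lower, against 2 and 2 in the same libraries without the block.

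Over all genes, 343 were higher and 356 lower. The counts were 195 and 216 without a filter and 199 and 183 with TPM scaling. They were 149 and 159 with the replicate block, and 292 and 342 in the same libraries without it. With a term for the ranges they were 416 and 455, in numbers 4 to 7 872 and 936, and in numbers 1 to 3 14 and 0. Libraries with Xist under 1 FPKM gave 798 and 908, and leaving out the acinar libraries gave 117 and 119. Leaving out 1 library gave 162 to 420 higher and 170 to 496 lower.

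Of 819 values of 33 named genes under the alternatives, 715 kept direction and side of the threshold, 65 lost and 19 gained a call, and 20 changed sign. All 20 belong to genes that were not called. Adamts10 had 0.03 with the replicate block and in the same libraries without it, 0.01 with a term for the numbers, 0.32 in numbers 1 to 3 and 0.02 without acinar libraries. Col18a1 had 0.11 in numbers 1 to 3 and 0.01 without acinar libraries, and Fn1 -0.01 in numbers 4 to 7. Mmp19 had 0.04 in numbers 4 to 7 and 0.08 with Xist under 1 FPKM, Thbs1 -0.01 without acinar libraries and Timp3 -0.09 in numbers 4 to 7. Leaving out 1 library gave -0.19 to 0.03 for Adamts10, -0.08 to 0.22 for Fn1 and -0.14 to 0.21 for Timp3. Genes under 0.5 FPKM rest on few reads, which limits what their values can show.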
